A study of Mus musculus with 9 samples.

Results

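The genes of the AP-1 transcription factors, with the immediate early factor Egr1, were followed in the mouse epidermis during imiquimod-induced psoriasis-like dermatitis, without and with Xiao-Yin-Fang (XYF), a herbal decoction. They were taken by gene symbol, as Fos, Fosb, Fosl1, Fosl2, Jun, Junb, Jund, Atf3 and Egr1, which are 9 of the 52550 genes in the epidermal count table, and each symbol matched 1 gene. RNA sequencing of epidermal sheets from the ears of wild type C57BL/6 mice (C57BL/6J in the methods) aged 8 weeks covered 3 groups with 3 libraries each. VAS + H2O mice received Vaseline on the skin and water by gavage, IMQ + H2O mice had imiquimod, which activates Toll-like receptor 7, in place of Vaseline, and IMQ + XYF mice had imiquimod with XYF at 23.3 mg/g in place of water. Every mouse was given 200 µl by gavage on 10 days and, per the paper, a topical application on the last 5 of these days. XYF was thus begun before imiquimod. No label says that libraries of a group came from separate animals. The methods name 2 mice as the source of the ear skin and do not say how they map to libraries. The figure legends of the paper give n = 3 for each group, without saying what was counted. The p-values below therefore measure the spread between these libraries, which may be technical in part.

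AP-1 is a dimer of basic leucine zipper (bZIP) proteins. A Jun protein (Jun, Junb or Jund) pairs with another Jun protein or with a Fos protein (Fos, Fosb, Fosl1 or Fosl2), and Fos proteins form no stable pairs among themselves. Most of these genes are silent or low in resting cells and are transcribed within minutes of a growth factor, a cytokine, wounding or other stress, handling of the tissue included, through MAP kinases and the serum response factor. Their mRNAs decay fast. In the epidermis AP-1 acts on genes of keratinocyte differentiation and inflammation, and loss of Junb with Jun in mouse epidermis is a known cause of psoriasis-like disease.

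The proximal promoters of the 4 members with a match between bases -110 and -21 are shown. The match was TGACG, the first part of a cyclic AMP response element, in Fos, Fosb and Junb. In Jun it was TGACATCA, which resembles the element but is neither that part nor the full element. The sequences are those of RefSeq for GRCm38, which matched Fos, Fosb, Fosl2, Jun, Junb, Jund and Atf3, 7 of the 9 members. They run 5′ to 3′ on the strand of the gene, in lower case, with the motif searched for in capitals.
Fos, chr12:85473780-85473869, plus strand: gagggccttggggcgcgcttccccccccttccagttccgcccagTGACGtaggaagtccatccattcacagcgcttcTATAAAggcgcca
Fosb, chr7:19310066-19310155, minus strand: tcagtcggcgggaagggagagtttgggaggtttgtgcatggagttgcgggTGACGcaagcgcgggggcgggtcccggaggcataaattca
Jun, chr4:95052243-95052332, minus strand: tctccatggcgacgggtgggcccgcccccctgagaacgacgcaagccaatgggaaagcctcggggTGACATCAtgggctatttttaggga
Junb, chr8:84978769-84978858, minus strand: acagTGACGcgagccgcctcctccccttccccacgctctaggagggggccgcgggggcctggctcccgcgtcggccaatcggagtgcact
The motifs were chosen after the values were seen and were searched on both strands over the 250 bases before the start. They were TGANTCA, the consensus AP-1 site, TGACGTCA, the full cyclic AMP response element, TGACNTCA, which includes it, TGACG, its first part, and TATAAA, the TATA box. TGACG lay at base -66 and again at base -129 in Fos, at -60 in Fosb, at -106 in Junb and on the other strand at -7 in Atf3, that is in 4 of 7 members, and in 17.8% of all 32851 promoters. TGACATCA, a match of TGACNTCA, lay at base -45 in Jun, and TGACNTCA was found in 7.49% of promoters. TATAAA lay at base -33 in Fos and was found in 12.4% of promoters, while no member window held TGANTCA or TGACGTCA, which occurred in 6.75% and 1.55% of promoters. A window without TGANTCA can still hold an AP-1 site of another form, the TGACATCA of Jun included. The windows follow RefSeq starts. The promoter sequence of Jund (chr8:70697489-70697788) ends before the gene as placed below. Those of Atf3 (chr1:191183284-191183583) and Fosl2 (chr5:32136222-32136521) lie inside their genes. For these members the bases just before the gene start given below were not searched. A match is a stretch of letters and says nothing of a protein bound there.

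The libraries held 30298275 to 64771160 counts, and the 9 members took 0.456% to 1.40% of the counts of a library. Keratinocyte markers (Krt5, Krt14, Krt1, Krt10, Lor and Krt15) summed to 38486 to 61142 CPM (the count scaled to the size of the library), against 2.85 to 11.3 CPM for 5 endothelial markers. VAS + H2O replicate 2 stood apart in dermal fibroblast markers, with 623 CPM over 6 genes against 66.3 and 99.7 CPM in the other VAS + H2O libraries, 44.6 to 51.7 CPM in IMQ + H2O and 69.6 to 201 CPM in IMQ + XYF. Cartilage markers summed to 180 to 438 CPM in VAS + H2O, 36.5 to 77.2 CPM in IMQ + H2O and 132 to 194 CPM in IMQ + XYF. Neutrophil markers were low, at 10.7 to 12.7 CPM over 5 genes in VAS + H2O. Under imiquimod, with or without XYF, they summed to 49.4 to 134 CPM. Cxcr2 alone gave most of these sums on average. Its mean was 11.4 CPM with Vaseline, 60.1 CPM under imiquimod and water and 57.1 CPM with XYF added. Csf3r and Retnlg, at 13.0 ± 21.7 and 5.24 ± 8.74 CPM under imiquimod and water, had an SD above their mean. The defining markers Ly6g and Mpo were each at 0 in 6 libraries. The sums therefore do not show a rise of the 5 markers as a set. In whole epidermal sheets, fewer cells of a type and less RNA per cell cannot be told apart. For dermal cell suspensions, the methods of the study peeled ear sheets after incubation in dispase II, an enzyme. They do not say how the sheets for RNA were separated. The part of such a step in the member levels was not tested. Values below are CPM after TMM scaling, with SD over 3 libraries.

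Fos, which encodes the prototype partner of Jun, lies on chromosome 12 from 85473890 to 85477273 (ENSMUSG00000021250, GRCm38). It ranked between 14th and 59th of all genes by count in every library. Fos stood at 2014, 2948 and 3707 CPM in VAS + H2O, at 2286, 1837 and 1533 CPM in IMQ + H2O and at 1822, 2028 and 1141 CPM in IMQ + XYF. The VAS + H2O libraries were the higher group on average, but their lowest library lay below the highest of both imiquimod groups. The mean was 2890 ± 848 CPM (n = 3) in VAS + H2O and 1885 ± 379 CPM in IMQ + H2O, a log2 fold change of -0.63 (SE 0.24, edgeR adjusted p = 0.108) that did not pass the test.

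Fosb, a Fos protein that is strongly inducible, lies on chromosome 7 from 19302696 to 19310051 on the minus strand (ENSMUSG00000003545). Its levels were 1045, 1799 and 2677 CPM in VAS + H2O, 1083, 856 and 670 CPM in IMQ + H2O and 805, 1002 and 417 CPM in IMQ + XYF. VAS + H2O replicate 1 alone overlapped with IMQ + H2O, and all 3 IMQ + XYF libraries lay below all 3 VAS + H2O libraries. Fosb had the largest difference of the 9 members between imiquimod and Vaseline, with a log2 fold change of -1.10 (SE 0.34, 95% interval -1.90 to -0.29) and an edgeR adjusted p of 0.0612. Without VAS + H2O replicate 1 the log2 fold change was -1.38 and passed the test, with an edgeR adjusted p of 0.0371.

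Fosl1, the gene of Fra-1, a Fos protein without the C-terminal activation domain of Fos that is associated with migrating and transformed epithelial cells, lies on chromosome 19 from 5447547 to 5455946 (ENSMUSG00000024912). It measured 16.1, 53.1 and 73.6 CPM in VAS + H2O, 99.3, 88.3 and 91.5 CPM in IMQ + H2O and 99.2, 89.6 and 51.7 CPM in IMQ + XYF. Every IMQ + H2O library was above every VAS + H2O library, which held for no other member and for 23.1% of all 18492 genes. The mean was 47.6 ± 29.1 CPM in VAS + H2O and 93.0 ± 5.64 CPM in IMQ + H2O. The log2 fold change of 0.95 (SE 0.47, 95% interval -0.17 to 2.08) did not pass the test, at an edgeR adjusted p of 0.188. It was 0.54 without VAS + H2O replicate 1 and was 1.45 without VAS + H2O replicate 3, and passed in neither fit. VAS + H2O replicate 1, with 761 Fosl1 counts, was the lowest of the 9 libraries, and the highest VAS + H2O library stood 4.57-fold above it.

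Fosl2, the gene of Fra-2, lies on chromosome 5 from 32135801 to 32157842 (ENSMUSG00000029135) and was the flattest of the Fos family. It measured 176, 292 and 275 CPM in VAS + H2O, 243, 233 and 238 CPM in IMQ + H2O and 243, 272 and 186 CPM in IMQ + XYF. The IMQ + H2O and IMQ + XYF libraries lay within the range of the control libraries. Its log2 fold change between IMQ + H2O and VAS + H2O was -0.07, with a 95% interval of -0.51 to 0.37.

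Jun, the founding member of the family and a target of JNK, is a single exon on chromosome 4 from 95049034 to 95052222 on the minus strand (ENSMUSG00000052684). It measured 1228, 1789 and 2290 CPM in VAS + H2O, 1747, 1311 and 1009 CPM in IMQ + H2O and 1400, 1362 and 737 CPM in IMQ + XYF. The groups overlapped, and the lowest library was IMQ + XYF replicate 3. The log2 fold change was -0.40 for IMQ + H2O against VAS + H2O (SE 0.27, edgeR adjusted p = 0.328).

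Junb, a weaker activator that can oppose Jun, lies on chromosome 8 from 84974484 to 84978718 on the minus strand (ENSMUSG00000052837). Its mean was 863 ± 169 CPM in VAS + H2O, 900 ± 63.8 CPM in IMQ + H2O and 834 ± 201 CPM in IMQ + XYF. The 3 IMQ + H2O libraries, at 947, 925 and 827 CPM, lay inside the range of the VAS + H2O libraries, at 676, 909 and 1005 CPM. The log2 fold change was 0.05, with a 95% interval of -0.32 to 0.41. Jund, which is the least inducible Jun protein, is a single exon on chromosome 8 from 70698949 to 70700616 (ENSMUSG00000071076). It measured 285, 322 and 378 CPM in VAS + H2O and 404, 287 and 221 CPM in IMQ + H2O, groups that overlapped, with a log2 fold change of -0.13 (95% interval -0.65 to 0.40).

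Atf3, a stress-induced bZIP factor that pairs with Jun proteins or with itself, lies on chromosome 1 from 191170296 to 191218039 on the minus strand (ENSMUSG00000026628). Its SD of log2 CPM within groups was the widest of the members, although in VAS + H2O the libraries of Fosl1 lay further apart. Atf3 measured 369, 807 and 1286 CPM in VAS + H2O, 713, 439 and 349 CPM in IMQ + H2O and 568, 652 and 182 CPM in IMQ + XYF. The highest library was 3.49-fold above the lowest in VAS + H2O and 3.58-fold in IMQ + XYF, and the log2 fold change of -0.73 for IMQ + H2O against VAS + H2O had a 95% interval of -1.81 to 0.36. Egr1, a zinc finger factor of the same early response that is no AP-1 protein, lies on chromosome 18 from 34859823 to 34864984 (ENSMUSG00000038418). It measured 1424, 2010 and 2197 CPM in VAS + H2O, 1610, 1622 and 1353 CPM in IMQ + H2O and 1468, 1524 and 1028 CPM in IMQ + XYF, with overlapping groups. Its log2 fold change of -0.31 for IMQ + H2O against VAS + H2O (SE 0.17, edgeR adjusted p = 0.239) did not pass the test.

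**Figure D1:**
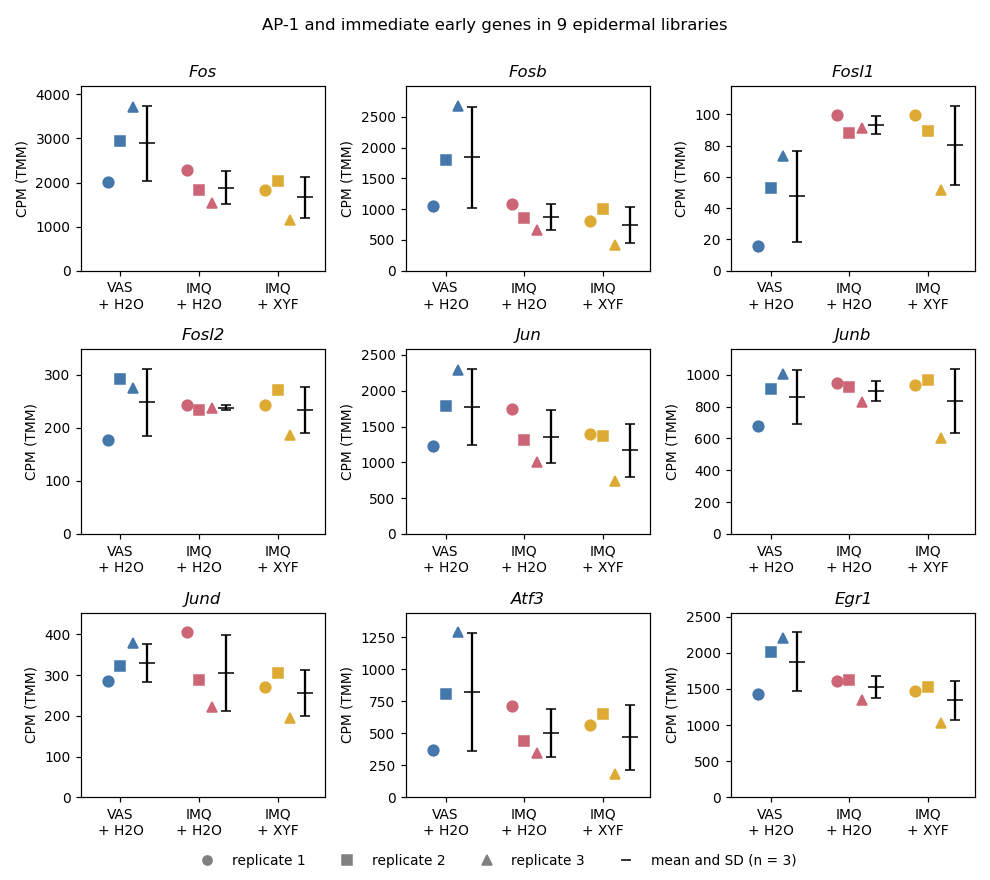
Each panel plots the CPM of a member (linear axis from 0) in the 3 libraries of each group, with the replicate number as the symbol and the mean and SD (n = 3) in black. Fosl1 is the member whose IMQ + H2O libraries (88.3 to 99.3 CPM) all lie above VAS + H2O (16.1 to 73.6 CPM), and Fosb is the member whose IMQ + XYF libraries (417 to 1002 CPM) all lie below VAS + H2O (1045 to 2677 CPM).

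The libraries of a group differed in the members as a set. VAS + H2O replicate 1 was the lowest of its group for 9 of 9 members, and replicate 3 was the highest for 8, with Fosl2 as the exception. IMQ + XYF replicate 3 was the lowest of its group for 9 of 9 members, while IMQ + XYF replicate 2 was the highest for 7. In IMQ + H2O, replicate 1 was the highest for 8 members and replicate 3 was the lowest for 7. Over all 9 libraries, VAS + H2O replicate 3 was the highest for 6 members and IMQ + XYF replicate 3 was the lowest for 7. Summed over the members, the levels were 7228, 10918 and 13881 CPM in VAS + H2O, 9127, 7595 and 6287 CPM in IMQ + H2O and 7605, 8193 and 4538 CPM in IMQ + XYF.

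The SD of log2 CPM within groups was 0.84 for Atf3, 0.73 for Fosl1, 0.58 for Fosb, 0.46 for Jun and 0.40 for Fos. The lowest was 0.28, for Egr1, Junb and Fosl2, against a median of 0.12 for the 2085 genes at a mean of 100 CPM or more. Between 89.5% and 99.7% of those abundant genes had a smaller SD than a given member. The 26 other immediate early genes examined shared the low libraries, with VAS + H2O replicate 1 the lowest of its group for 21 of them and IMQ + XYF replicate 3 for 24. They differed from the members at the top of VAS + H2O, where replicate 2 was the highest for 14 and replicate 3 for 10. Over all 18492 genes, IMQ + XYF replicate 3 was the lowest of its group for 6288 and VAS + H2O replicate 1 for 5642. The library that stood apart in dermal fibroblast markers, VAS + H2O replicate 2, was the middle library of its group for 8 of the 9 members.

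**Figure D2:**
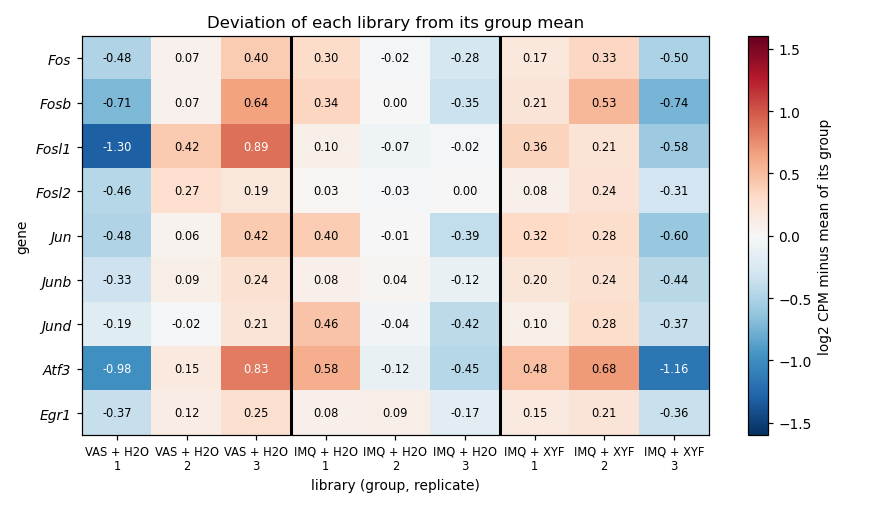
Heat map of log2 CPM minus the mean of the group, for 9 members (vertical axis) in 9 libraries (horizontal axis, group and replicate), with red above and blue below the group mean. The columns of VAS + H2O replicate 1 and IMQ + XYF replicate 3 are blue for 9 of 9 members, and the deviations run from -1.30 for Fosl1 in the former to 0.89 for Fosl1 in VAS + H2O replicate 3.

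To ask whether imiquimod moved the members, IMQ + H2O was compared with VAS + H2O over all genes. With calls at an adjusted p up to 0.05 and a log2 fold change of 1 or more in size, edgeR called 0 of the 9 members, while it called 7.68% of the 18009 genes tested (656 higher and 727 lower). At the adjusted p alone it called 0 members and 22.1% of genes. An unadjusted p under 0.05 was reached by 2 members, Fos and Fosb, and by 6823 genes. DESeq2 called Fosb, with a log2 fold change of -1.08 and an adjusted p of 0.00243, and gave Fos a DESeq2 adjusted p of 0.0334 at a log2 fold change of -0.62, under the fold limit. The shares of genes called above are those of edgeR and give no background for this DESeq2 call. On simulated data without changes, DESeq2 made 17 calls and edgeR 0. That was a single draw from dispersions estimated by edgeR, which may favour edgeR and does not judge the call of Fosb. Fold changes were negative for 7 members and positive for Fosl1 and Junb, with a median of -0.31 against -0.03 over all genes tested. Groups did not overlap for 1 of 9 members and for 44.5% of all genes.

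Whether XYF moved the members under imiquimod was asked by setting IMQ + XYF against IMQ + H2O. edgeR called 0 of 9 members and 0.0281% of the 17793 genes tested, that is 5 genes, and DESeq2 called 0 members and 129 genes. No member had an unadjusted p under 0.05, against 966 genes, and every member had an edgeR adjusted p of 0.9999. All 9 fold changes were negative, between -0.24 for Jund and -0.02 for Fosl2, and the groups overlapped for all 9 members, while 10.7% of all genes did not overlap. The 95% intervals were narrowest for Fosl2, from -0.34 to 0.30, ran from -0.74 to 0.39 for Fos, from -0.99 to 0.55 for Fosb and from -0.74 to 0.33 for Fosl1, and were widest for Atf3, from -1.22 to 1.04. Leaving out IMQ + XYF replicate 3 turned the fold changes of Fos, Fosb, Fosl1, Fosl2, Jun, Junb and Atf3 to positive values between 0.03 and 0.29, so the negative direction rested on that library for 7 of 9 members. Leaving out IMQ + H2O replicate 1 turned those of Jun, Jund and Atf3 to between 0.0079 and 0.24, and that of Egr1 stayed negative in each of the 6 fits.

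IMQ + XYF was also compared with VAS + H2O, a comparison that shares its libraries with both others. edgeR called 0 of 9 members against 7.64% of the 17954 genes tested, and at the adjusted p alone 0 members against 28.7% of genes. Fos and Fosb had an unadjusted p under 0.05, as did 7418 genes. Fosb had the largest difference, a log2 fold change of -1.31 (SE 0.42, edgeR adjusted p = 0.0570), and was lower in all 3 IMQ + XYF libraries, as were 22% of genes. Its groups were the only ones of the 9 members without overlap, against 46.8% of all genes. Fos followed with -0.80 (SE 0.28, edgeR adjusted p = 0.0764), and Egr1 had -0.49 (SE 0.21, edgeR adjusted p = 0.127). Fosl1, at 80.2 ± 25.1 CPM in IMQ + XYF, had a log2 fold change of 0.76 with a 95% interval of -0.48 to 1.99 and overlapped with VAS + H2O through IMQ + XYF replicate 3. DESeq2 called Fosb (adjusted p = 0.0303), and so did edgeR without VAS + H2O replicate 1 (adjusted p = 0.0360) or with all 9 libraries in 1 fit (adjusted p = 0.0366). The shares of genes called here are those of the edgeR fit of 6 libraries, which give no background for these calls.

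**Figure D3:**
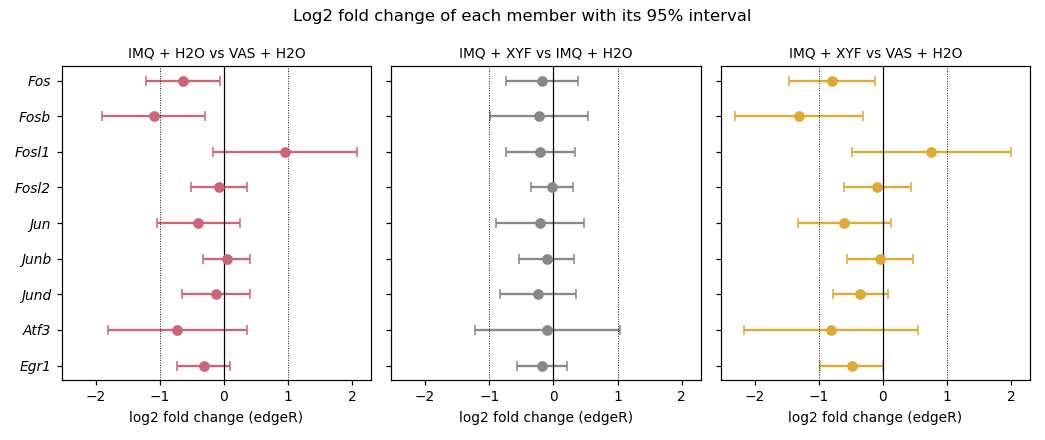
Log2 fold change of each member by edgeR (horizontal axis) with its 95% interval, in 3 comparisons, with dotted lines at a log2 fold change of -1 and 1. The interval of Fosb lies below 0 in both comparisons with VAS + H2O (-1.90 to -0.29 and -2.31 to -0.32), that of Fosl1 spans 0 in all panels, and the 9 intervals for XYF all span 0.

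Levels of different members were compared per kilobase of merged exons (CPM per kb), to describe the make-up of each family. The order depends on that length. Merged exons came to 2301 bases for Junb and 6243 for Fosb, their longest transcripts to 1809 and 3782. Jun had 3189 by both. Dividing by the longest transcript raises Junb and Fosb relative to Jun. The places of these genes and the size of the shares below hold for merged exons only. Fos was the highest of the 9 in every group, with 1229 ± 361 CPM per kb in VAS + H2O libraries, 802 ± 161 in IMQ + H2O libraries and 707 ± 197 in IMQ + XYF libraries, without overlap with the next gene. Jun came next in each group, with 555 ± 167, 425 ± 116 and 366 ± 117 CPM per kb, but its range overlapped with that of the next gene, Egr1 in VAS + H2O and Junb under imiquimod. Egr1, Atf3, Junb, Fosb and Jund followed in VAS + H2O, between 419 ± 89.996 CPM per kb for Egr1 and 197 ± 28.0 for Jund, and neighbours in that order overlapped. Fosl2 and Fosl1 were the lowest. In VAS + H2O, Fosl1 was last, with 23.4 ± 14.3 CPM per kb against 25.6 ± 6.45 for Fosl2, and their ranges overlapped. In IMQ + H2O the order was the other way round, with 45.8 ± 2.78 CPM per kb for Fosl1 and 24.6 ± 0.481 for Fosl2, without overlap.

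Within the Fos family, Fosl1 took a larger share in every imiquimod library than in any VAS + H2O library, with or without XYF. Fosl1 made up 0.754%, 1.64% and 1.75% of the summed CPM per kb of the 4 Fos genes in VAS + H2O, 4.01%, 4.41% and 5.43% in IMQ + H2O and 4.99%, 4.03% and 4.27% in IMQ + XYF. IMQ + H2O exceeded VAS + H2O by 3.23 percentage points (4.61% ± 0.734 against 1.38% ± 0.544), with p = 0.1 in an exact two-sided permutation test, the smallest p that 3 against 3 libraries allow. IMQ + XYF was 3.05 points above VAS + H2O (exact p = 0.1) and differed from IMQ + H2O by -0.186 points (exact permutation p = 0.7). Fosl2 also took a larger share in every imiquimod library, with 2.49% ± 0.459 in IMQ + H2O and 2.78% ± 0.376 in IMQ + XYF against 1.67% ± 0.264 in VAS + H2O (exact permutation p = 0.1 for each). The mean level of Fosl2 did not rise, at 25.6, 24.6 and 24.1 CPM per kb in the control, model and XYF groups. The 4 Fos genes summed to 1050 to 2070 CPM per kb in VAS + H2O. Their sums were 829 to 1219 in IMQ + H2O and 597 to 1095 in IMQ + XYF.

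Fosb took a smaller share in every imiquimod library. It made up 15.9%, 18.0% and 20.7% of the family in VAS + H2O, 14.2%, 13.9% and 12.9% in IMQ + H2O and 13.2%, 14.7% and 11.2% in IMQ + XYF. The mean share differed from that of VAS + H2O by -4.54 points in IMQ + H2O and by -5.22 points in IMQ + XYF (exact permutation p = 0.1 for each). Fos itself made up 78.7% ± 2.72, 79.2% ± 0.528 and 79.8% ± 1.37 of the family in the control, model and XYF groups, and these ranges overlapped.

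In the Jun family, Jun made up 48.7% ± 3.34 in VAS + H2O libraries, 42.2% ± 3.24 in IMQ + H2O libraries and 41.0% ± 2.88 in IMQ + XYF libraries. Junb made up 33.5% ± 1.65, 39.8% ± 5.19 and 41.3% ± 1.39 in the same order. IMQ + XYF did not overlap with VAS + H2O for either, with a difference of -7.72 points for Jun and 7.82 points for Junb (exact permutation p = 0.1 for each), whereas IMQ + H2O overlapped with VAS + H2O for both (exact permutation p = 0.2 for Jun and 0.3 for Junb). The mean level of Junb did not rise with its share, at 863 CPM in VAS + H2O and 834 CPM in IMQ + XYF. The 3 Jun genes summed to 850 to 1381 CPM per kb in VAS + H2O. Their sums were 808 to 1202 in IMQ + H2O and 610 to 1030 in IMQ + XYF. Jund made up 17.7% to 18.0% on average in each group. Over the 21 share comparisons made, the smallest adjusted p was 0.263. None could pass 0.05, since 3 against 3 libraries allow no exact permutation p under 0.1. The shares of a family sum to 100%, which ties them to each other. Fosl1 shares exons with Ccdc85b on the other strand (193 to 437 counts per library), and Junb with Prdx2 (3215 to 8861 counts). Whether the counting used strand is not given in the sources used here, so reads of such pairs may be split or lost.

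**Figure D4:**
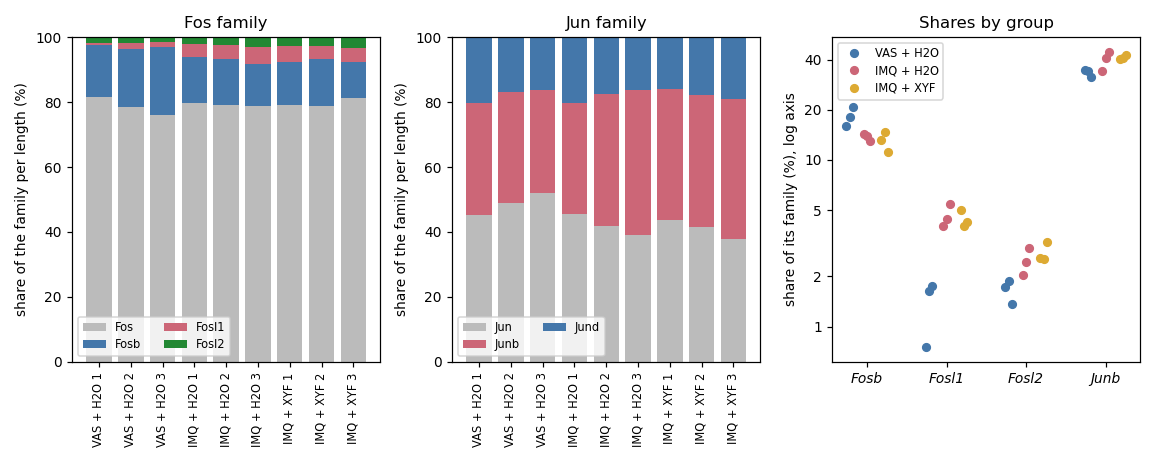
Left and middle, stacked bars of the share of each Fos and Jun gene in the summed CPM per kb of its family (percent) in 9 libraries. Right, the shares of Fosb, Fosl1, Fosl2 and Junb per library by group on a log axis, where every imiquimod library lies above VAS + H2O for Fosl1 (at least 4.01% against at most 1.75%) and below it for Fosb (at most 14.7% against at least 15.9%).

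The genes most like Fos, Fosl1 and Egr1 were looked up among 13103 genes by the root mean square difference of centred log2 CPM over the 9 libraries, as a description. Fos was closest to Sik1, an inducible kinase, at 0.094, then to Jun at 0.12 and Ccdc28a at 0.13, with Dusp1, the phosphatase that inactivates MAP kinases, and Ikzf2 at 0.16. Egr1 was the 10th closest gene to Fos, while Fosl1 was the 12278th. The gene closest to Fosl1 was Hbegf, which encodes a ligand of the epidermal growth factor receptor, at 0.19, and Gm12840, Mcfd2, 1810011O10Rik and Nfkbiz followed at 0.24 to 0.32. The genes closest to Egr1 were Pim3 at 0.091, Tnrc6b, Epm2aip1, Tmem38a and the immediate early gene Ier2, the last at 0.13. The 9 libraries behind each value are the same, so differences in depth or handling between libraries enter every likeness.

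The related genes were read from the same fits in 6 lists. In IMQ + H2O against VAS + H2O, 3.64% of all genes tested were called higher and 4.04% lower, and the counts below are read against these shares. Of 12 genes regarded as AP-1 targets, 3 rose and 9 did not pass, with a median log2 fold change of 0.89. Cd44, a hyaluronan receptor, rose from 209 ± 30.9 to 551 ± 126 CPM (log2 fold change 1.38, edgeR adjusted p = 0.00810). Ivl, the cornified envelope protein involucrin, rose from 161 ± 25.3 to 348 ± 42.0 CPM (1.10, edgeR adjusted p = 0.00743), and Vegfa, an angiogenic factor, from 12.9 ± 2.29 to 29.97 ± 4.86 CPM (1.20, edgeR adjusted p = 0.0099). Each of these 3 calls held with any library left out. Hbegf was at 86.0 ± 42.8 CPM in VAS + H2O and 209 ± 29.0 CPM in IMQ + H2O and did not pass (log2 fold change 1.27, edgeR adjusted p = 0.0558), whereas DESeq2 called it (1.29, DESeq2 adjusted p = 0.00117). Plaur, the urokinase receptor, had the largest value of the list, 2.43, and did not pass (edgeR adjusted p = 0.0931).

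Of the 26 other immediate early genes, 1 rose, 3 fell and 22 did not pass. Ctgf fell from 253 ± 107 to 66.6 ± 24.1 CPM (log2 fold change -1.95, edgeR adjusted p = 0.0160), Klf2 from 77.6 ± 33.8 to 24.5 ± 6.09 CPM (-1.68, edgeR adjusted p = 0.0173) and Cyr61 from 456 ± 130 to 222 ± 23.4 CPM (-1.05, edgeR adjusted p = 0.0196). Ctgf and Cyr61 encode secreted matricellular proteins and Klf2 a zinc finger factor. Cartilage markers moved with them, with 6 of 6 genes called lower in IMQ + H2O, dermal fibroblast markers had 1 of 6 called lower, and their part in these falls was not tested. Ier5l rose from 2.03 ± 0.885 to 5.56 ± 0.845 CPM (1.43, edgeR adjusted p = 0.0243). Without VAS + H2O replicate 2, the library with the most dermal fibroblast and cartilage RNA, the calls of Cyr61 and Ier5l were lost at fold changes close to those with it (-0.96, edgeR adjusted p = 0.0646, and 1.30, edgeR adjusted p = 0.0783). In that fit Ctgf and Klf2 were still called, at -1.56 and -1.25, the smallest falls of their fits with a library left out. The call of Ctgf held in all 6 fits with a library left out, that of Klf2 in all but the fit without IMQ + H2O replicate 3, that of Ier5l in 2 and that of Cyr61 in 1, the fit without VAS + H2O replicate 1. Nr4a1, an orphan nuclear receptor, was at 890 ± 365 CPM in VAS + H2O and 465 ± 140 CPM in IMQ + H2O and did not pass (edgeR adjusted p = 0.104).

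Of 19 feedback genes, 1 rose and 18 did not pass. It was Dusp6, a phosphatase specific to ERK that is itself induced by ERK signalling, which went from 50.8 ± 4.77 to 128 ± 38.8 CPM (log2 fold change 1.32, edgeR adjusted p = 0.0122), a call that held with any library left out. Dusp1, the phosphatase close to Fos in its pattern, was at 1010 ± 277 CPM in VAS + H2O and 841 ± 150 CPM in IMQ + H2O and did not pass (edgeR adjusted p = 0.393). Among 13 tested bZIP relatives, 1 rose, namely Atf5, from 28.2 ± 1.13 to 58.8 ± 12.0 CPM (1.05, edgeR adjusted p = 0.00992), a call lost without IMQ + H2O replicate 3. Of 35 identifiers of upstream kinases and factors, 1 was called lower. It was 1 of 2 identifiers of Map2k7 (ENSMUSG00000109061), at 0 in 4 libraries and with up to 1072 counts in others, whose call held in 2 of 6 fits with a library left out, while the other identifier of Map2k7 had a log2 fold change of 0.27 that did not pass (edgeR adjusted p = 0.466). Map2k1, the kinase MEK1, passed the adjusted p but not the fold limit, at 0.92 (edgeR adjusted p = 0.0122).

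Heat shock genes, which mark stress of cells or of the tissue in handling, had 2 of 11 called higher. Hspd1 rose from 120 ± 11.4 to 269 ± 52.3 CPM (edgeR adjusted p = 0.00796) and Hspe1 from 28.9 ± 2.40 to 59.8 ± 14.7 CPM (edgeR adjusted p = 0.0127), and both encode mitochondrial chaperones. DESeq2 also called Hsp90aa1, a cytosolic chaperone, with a log2 fold change of 1.004 (DESeq2 adjusted p = 5.44e-05) against 0.986 in edgeR, under the fold limit. The edgeR calls of Hspd1 and Hspe1 were lost without IMQ + H2O replicate 3, and that of Hspe1 also without VAS + H2O replicate 1. At the edgeR adjusted p alone 5 of the 11 passed, all higher. Hspa1a (log2 fold change 0.32), Hspa1b (0.28), Dnajb1 (0.38) and Hspb1 (-0.25) did not pass, with edgeR adjusted p of 0.284, 0.293, 0.378 and 0.341. The summed level of the 11 genes was 4664 to 5546 CPM in VAS + H2O, 6165 to 7216 CPM in IMQ + H2O and 5948 to 6733 CPM in IMQ + XYF. Within groups it was highest in VAS + H2O replicate 3, IMQ + H2O replicate 1 and IMQ + XYF replicate 2 and lowest in IMQ + XYF replicate 3, which held for the summed members too. It was lowest in replicate 2 of VAS + H2O and of IMQ + H2O, whereas the summed members were lowest in VAS + H2O replicate 1 and IMQ + H2O replicate 3. Its part in their spread was not tested.

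Between IMQ + XYF and IMQ + H2O, edgeR called 0 of the 116 identifiers tested in the 6 lists, against 0.0281% of all genes, and 4 of them had an unadjusted p under 0.05. DESeq2 called 1, Arc, an immediate early gene best known from neurons, with a log2 fold change of -1.05 (DESeq2 adjusted p = 0.0331). Arc was at 108 ± 48.6 CPM in VAS + H2O, 263 ± 114 CPM in IMQ + H2O and 127 ± 35.2 CPM in IMQ + XYF, and its edgeR adjusted p was 0.718. Ctgf, at 199 ± 114 CPM in IMQ + XYF, had the largest value of the lists, a log2 fold change of 1.59 that did not pass (edgeR adjusted p = 0.575). Cartilage markers moved the same way, with 2 of 6 genes called higher and a median log2 fold change of 2.05, dermal fibroblast markers had 0 of 6 called (5 at an unadjusted p under 0.05) and a median of 1.45, and their part in the value of Ctgf was not tested.

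Between IMQ + XYF and VAS + H2O, which shares the VAS + H2O libraries with the first comparison, 9 of 117 identifiers of the lists rose and 1 fell, against 4.58% and 3.05% of all genes tested. Atf5 (log2 fold change 1.09), Ier5l (1.71), Dusp6 (1.46), Cd44 (1.36), Vegfa (1.14), Plaur (2.26), Hspd1 (1.14), Hspe1 (1.15) and Hsp90aa1 (1.06) rose, and Klf2 fell (-1.14). Dusp6 reached 139 ± 26.7 CPM and Cd44 536 ± 27.2 CPM in IMQ + XYF, and both calls held with any library left out. The call of Hsp90aa1 was lost without VAS + H2O replicate 1. The call of Plaur held in 1 of 6 fits with a library left out and was lost with all 9 libraries in 1 fit (edgeR adjusted p = 0.0997), and that of Klf2 held in 2 of 6. Klf2 was not called without VAS + H2O replicate 2. DESeq2 also called Mmp13, a collagenase, with a log2 fold change of 2.06 (DESeq2 adjusted p = 0.00561, edgeR adjusted p = 0.0763). Ivl, at 299.7 ± 11.1 CPM in IMQ + XYF, passed the adjusted p but not the fold limit, at 0.90 (edgeR adjusted p = 0.00285).

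**Figure D5:**
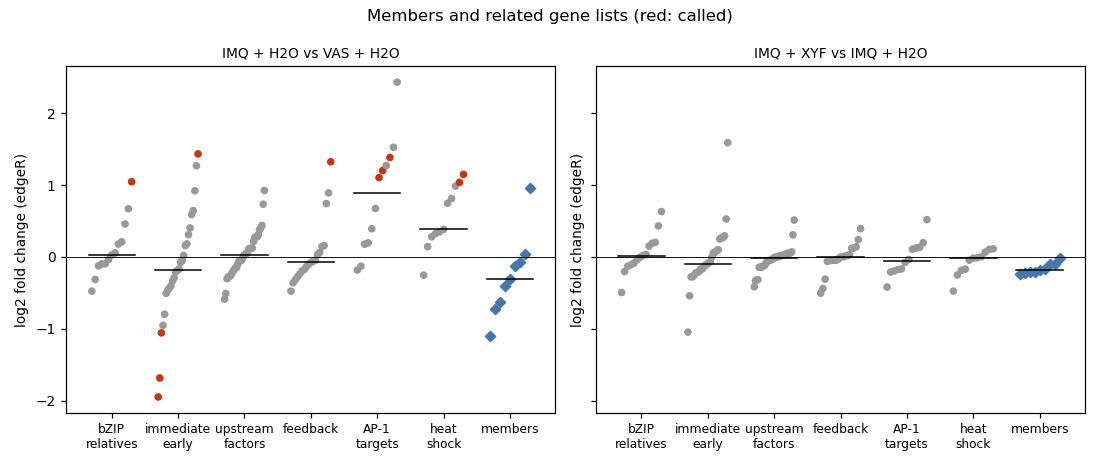
Log2 fold changes by edgeR (vertical axis) of the genes of 6 related lists and of the 9 members (diamonds), for imiquimod against Vaseline on the left and for XYF under imiquimod on the right, with called genes in red and medians as lines. AP-1 targets have a median of 0.89 on the left against -0.31 for the members, and no gene is called on the right. The called Map2k7 identifier lies beyond the axis and is not drawn.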

How the data were processed

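Per the labels and the methods of the study, TruSeq libraries of total RNA were sequenced on an Illumina instrument and aligned with STAR 2.5 to GRCm38 with an Ensembl annotation. The tools named in the submitters' processing notes also include FastQC, Cuffnorm and DESeq 1.22.1. The authors deposited whole-number read counts per gene for each epidermal library, without normalization. The counting tool and its strand setting are not given in the sources used here. The labels call the libraries strand-specific, while the kit named in the methods does not mark strand. Depth was 30298275 to 64771160 counts per library, and mitochondrial genes took 2.56% to 4.12%. Intervals cover the spread between libraries, and reads without molecular identifiers are not independent molecules. Within each group, all pairs of libraries differed beyond sampling noise (chi-square per gene 23.8 to 75.0).

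Groups were taken from the labels. Each comparison was fitted on its own 6 libraries in R 4.3.3 with edgeR 4.0.16 (TMM, filterByExpr, glmQLFit, glmQLFTest), with Benjamini-Hochberg adjustment over all genes tested. A call needed an adjusted p up to 0.05 and a log2 fold change of 1 or more in size. CPM (the count scaled to library size) used TMM factors from 18492 genes filtered on all 9 libraries together, and log2 CPM a prior count of 2. All 9 members passed this filter. Standard errors were derived from the test statistic. Gene positions and exon lengths came from GENCODE release M21 (GRCm38). Family shares were tested by exact permutation, two-sided, in scipy 1.17.1.

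The members and lists were chosen with earlier results of these data known. The named genes are the 9 members, up to 4 called genes with the smallest p from each list and comparison, list genes given as background, and the 5 genes most like Fos, Fosl1 and Egr1 with a mean log2 CPM over 1. Hbegf, Plaur, Nr4a1, Dusp1, Map2k1, Arc and Ctgf under XYF were named as background after their values were seen. On simulated data for IMQ + H2O against VAS + H2O, 200 of 18009 genes were changed by 2 on the log2 scale. Counts were drawn once, from dispersions estimated by edgeR over genes that passed its filter, which may favour edgeR. There edgeR recovered 79% with 4 false calls and made 0 calls when nothing was changed. DESeq2 1.42.0 recovered 84.5% with 24 false calls and made 17 calls when nothing was changed. In the main fits the largest member difference was -1.31, of Fosb, and the members spread more than most abundant genes. The recovery therefore does not give the power for the members. Alternatives were DESeq2, RLE size factors, a fit without a filter, a minimum of 10 counts in each library, a joint fit of the 9 libraries, a replicate block, the adjusted p alone, other length divisors for the shares, and each library left out in turn. Reading the related lists under these alternatives was added after the data were seen. Dermal libraries were not analysed here.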

Additional observations from a re-analysis of the deposited data

How the results depend on the processing

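Among the alternative values of the member fold changes, 326 kept their direction and their side of the threshold, 20 changed sign and 5, those of Fosb, passed the threshold. The genes called in IMQ + H2O against VAS + H2O were 3986 at the adjusted p alone and 711 to 1314 with a library left out. In IMQ + XYF against IMQ + H2O they were 129 by DESeq2 (126 higher and 3 lower), 1 with all 9 libraries in 1 fit, 0 with the replicate block and 0 to 5 with a library left out, and in IMQ + XYF against VAS + H2O they were 5152 at the adjusted p alone and 996 to 1350 with a library left out. The members called were 1, Fosb, by DESeq2 in both comparisons with VAS + H2O and 1 with all 9 libraries in 1 fit in IMQ + XYF against VAS + H2O. With a library left out, 0 to 1 were called in both comparisons with VAS + H2O, Fosb without VAS + H2O replicate 1, and 0 between XYF and water under imiquimod. The cause of these changes was not tested.

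Every member fold change that changed sign did so with a library left out. For IMQ + H2O against VAS + H2O the log2 fold change ranged from -0.27 to 0.070 for Fosl2, -0.11 to 0.20 for Junb and -0.35 to 0.062 for Jund. For IMQ + XYF against IMQ + H2O it ranged from -0.34 to 0.033 for Fos, -0.50 to 0.059 for Fosb, -0.40 to 0.026 for Fosl1, -0.14 to 0.12 for Fosl2, -0.39 to 0.030 for Jun, -0.22 to 0.082 for Junb, -0.43 to 0.017 for Jund and -0.41 to 0.29 for Atf3. For IMQ + XYF against VAS + H2O it ranged from -0.28 to 0.057 for Fosl2 and -0.20 to 0.14 for Junb.

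The family shares of Fosb, Fosl1, Fosl2, Jun and Junb kept their direction against VAS + H2O under each alternative. With a library left out, the Fos share differed by -0.797 to 1.91 points (IMQ + H2O minus VAS + H2O), -0.21 to 1.08 (IMQ + XYF minus IMQ + H2O) and -0.229 to 2.48 (IMQ + XYF minus VAS + H2O). For IMQ + XYF minus IMQ + H2O the ranges were -1.50 to 0.237 for Fosb, -0.490 to 0.222 for Fosl1, -2.66 to 0.556 for Jun, -1.32 to 3.80 for Junb and -1.14 to 0.764 for Jund. The Jund share also ranged from -0.865 to 1.39 for IMQ + H2O minus VAS + H2O, with -0.0356 when the longest transcript was the length, and from -0.852 to 1.07 for IMQ + XYF minus VAS + H2O, with 0.23 when the shares were taken without length.

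No pairing of the libraries by replicate number was evident. Same-numbered libraries of different groups had correlations of deviations between -0.133 and 0.105, and differently numbered ones between -0.223 and 0.172. With 3 libraries per group, these values cannot exclude a pairing. With the number as a replicate block, 1100 and 1113 genes were called in the 2 comparisons with VAS + H2O, 0 between IMQ + XYF and IMQ + H2O, and 0 members in each. The block also ended the calls of Cyr61 (edgeR adjusted p = 0.0539) and Ier5l (0.0562) for IMQ + H2O against VAS + H2O and of Plaur (0.143) for IMQ + XYF against VAS + H2O. Only 3 libraries per group, with a spread of the members above that of most abundant genes, limit what differences could be detected.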
